A study of Mus musculus with 8 samples.

Results

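Genes of intestinal iron uptake and storage were measured in the ileum of diabetic mice treated with voglibose or with water. They were chosen by gene symbol, with earlier results of these data known, and all 10 of 10 were found among 19505 named genes, each with 1 probe set. All mice, in both groups, were males of the KKAy strain, an obese and diabetic model with the yellow agouti (Ay) allele. They were aged 14 weeks and weighed 30 g per the labels, and their high-fat diet drew 45% of its energy from fat. Whether this age and weight are those at the start of the study or at sampling is not stated here. After 4 weeks on this diet, 4 mice received voglibose at 1 mg/kg and 4 received an equal volume of water, by gavage once daily for 8 weeks. The drug blocks alpha-glucosidases at the brush border. RNA from about 4 cm of ileum per mouse was hybridised to 1 Affymetrix array per mouse, and the values are log2 signals. No treated mice of a non-diabetic strain were among the 8 samples, so the groups speak only for this model.

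Dietary iron is taken up mainly in the proximal small intestine, and much less in the ileum. Ferric iron is reduced at the brush border by Cybrd1 (duodenal cytochrome b) and carried into the enterocyte by Slc11a2 (DMT1), while Slc46a1 is the proton-coupled folate transporter, which was first described as a heme carrier. Inside the cell iron is held in ferritin, built from Fth1 and Ftl1 subunits, or leaves through the basolateral exporter Slc40a1 (ferroportin) after oxidation by Heph (hephaestin). Tfrc takes up transferrin iron from the blood side, Slc39a14 carries zinc, manganese and iron, and Epas1 encodes the oxygen-sensitive factor HIF2A, which drives Cybrd1, Slc11a2 and Slc40a1 in the duodenum of iron-deficient mice. Iron regulatory proteins also control ferritin at translation, a step that arrays do not measure.

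The sequence upstream of 2 members is shown because the results turn on the mice in which they are high, and because HIF2A binds a short core in such regions. The windows cover 250 bases before the annotated start, 5′ to 3′, from RefSeq (GRCm38.p6), at chr2:71117804-71118053 (+ strand) for Cybrd1 and chr11:78465451-78465700 (+ strand) for Slc46a1. Capitals mark matches to the core letters ACGTG or GCGTG on either strand.
Cybrd1: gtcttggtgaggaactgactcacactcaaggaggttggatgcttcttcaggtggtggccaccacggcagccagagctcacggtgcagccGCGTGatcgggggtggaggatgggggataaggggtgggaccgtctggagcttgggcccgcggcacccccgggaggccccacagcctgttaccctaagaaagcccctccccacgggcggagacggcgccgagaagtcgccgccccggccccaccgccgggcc
Slc46a1: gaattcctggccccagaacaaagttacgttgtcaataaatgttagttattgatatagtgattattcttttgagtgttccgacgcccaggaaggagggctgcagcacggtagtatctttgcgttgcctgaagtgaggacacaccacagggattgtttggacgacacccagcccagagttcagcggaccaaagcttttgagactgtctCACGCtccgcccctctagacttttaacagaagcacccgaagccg
The match began 161 bases upstream of the start in Cybrd1 and 44 bases upstream in Slc46a1, where it lies on the opposite strand. Windows were at hand for 5 members (Cybrd1, Slc46a1, Tfrc, Fth1 and Ftl1; 7 windows, since Tfrc and Fth1 have more than 1 start), and 6 of the 7 held a match. Of all 32851 windows of this length, 38.6% held one, and ACGTG also lies inside the E-box CACGTG that other factors bind. A match is letters in a window and was not tested as a binding site.

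The labelled tissue was checked against marker lists, which differed between mice; the position of each sample along the gut was not tested. The arrays had medians of 5.89 to 5.94 and correlated with each other at 0.982 to 0.994. The 10 enterocyte markers were bright, with list means per mouse (mean log2 deviation from the average of the 8 mice) from -0.28 to 0.05 with water and -0.04 to 0.18 with voglibose. Of these 10, Treh, the gene of the brush border enzyme trehalase, was uneven, from 9.61 in water mouse 2 to 13.83 in voglibose mouse 2. Regional markers were uneven too. Fabp6, the bile acid binding protein of the distal ileum, had 8.51, 17.50, 14.11 and 4.01 in water mice 1 to 4 and 8.14, 3.54, 10.78 and 11.68 in voglibose mice 1 to 4. The lowest Fabp6 values were those of water mouse 4 and voglibose mouse 2, and in these 2 mice Fabp6 lay at or below the lower quartile of the arrays (4.05 to 4.18). The list of 12 proximal markers had means of 0.04, -1.21, 0.03 and 0.94 with water and 0.08, 0.71, -0.38 and -0.22 with voglibose. Of these 12 genes, 7 were highest in water mouse 4 and voglibose mouse 2 and 5 were not, and 3 (S100g, Pdx1 and Trpv6, all dim) were higher in water mouse 2 than in water mouse 4. Adh6a had the widest range, 8.35 log2 units, and without it the means of water mice 2 and 4 and voglibose mouse 2 were -0.94, 0.64 and 0.49. Smooth muscle markers ran from -1.59 in water mouse 4 to 1.66 in water mouse 2. Voglibose mouse 2 also held pancreatic transcripts, with Cpa1 at 12.01 against 4.72 to 5.37 in the other mice and Ctrb1 at 11.17 against 2.64 to 3.31. In such bulk samples fewer cells of a type and less RNA per cell cannot be told apart.

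No difference between voglibose and water mice was detected in any of the 10 iron genes, and the groups overlapped in every one. Differences ran from -0.40 in Slc46a1 to 0.18 in Slc39a14 on the log2 scale, 5 higher and 5 lower (7 and 3 after a further quantile normalization), with a median of 0.0025 beside -0.005 over all probe sets. At an unadjusted p under 0.05 there were 0 of 10, where the whole array had 7.52% (limma), and groups that did not overlap made up 4.35% of the array. No member passed after Benjamini-Hochberg adjustment over all 22206 probe sets (0%), with adjusted p from 0.866 to 0.997. An ordinary linear model also called 0, with 0 at an unadjusted p under 0.05. The 95% interval of the difference stayed within 2-fold either way for 9 of 10 members, all but Slc46a1, and within 1.5-fold for 4: Heph, Fth1, Ftl1 and Epas1. With the Fabp6-low pair left out (water mouse 4, voglibose mouse 2), differences ran from -0.30 in Slc46a1 to 0.49 in Tfrc, again with 0 of 10 at an unadjusted p under 0.05.

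**Figure D1:**
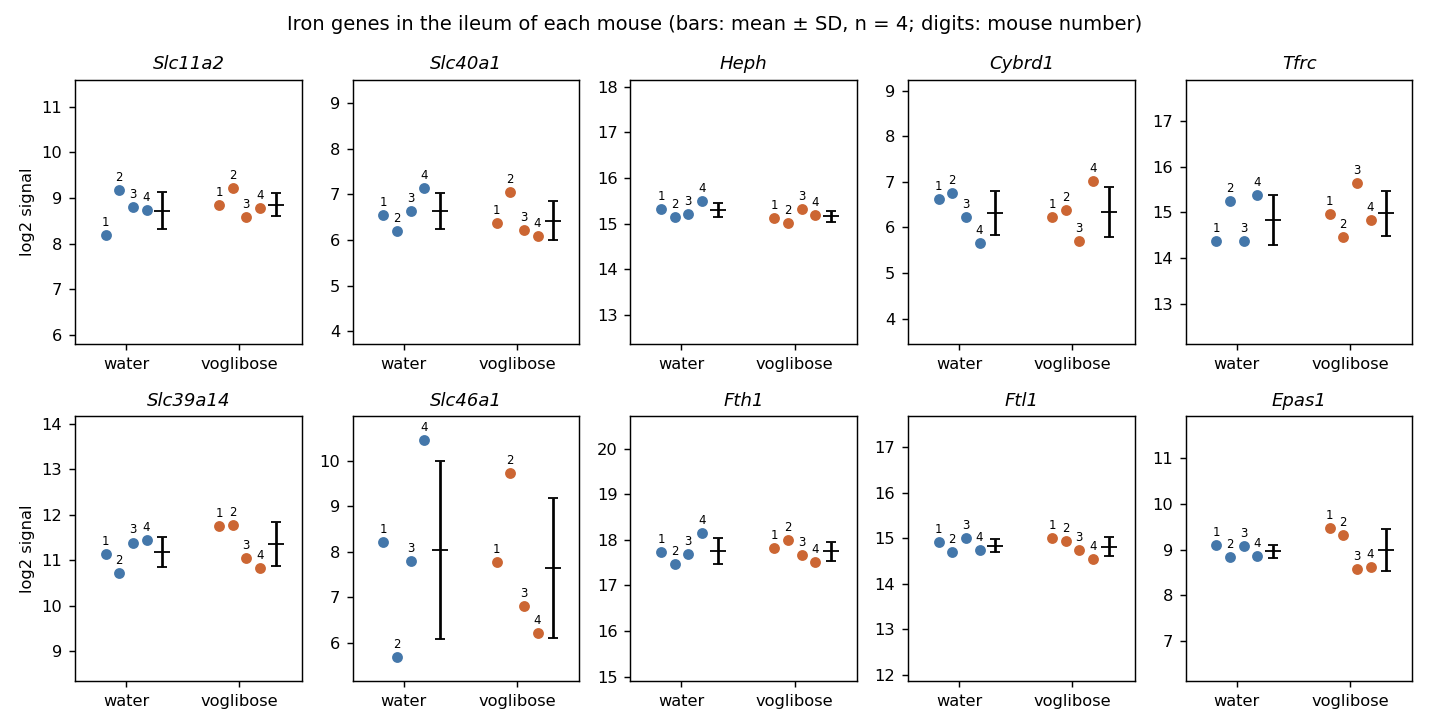
Log2 signal of each iron gene (y axes, all spanning the same range) in the 4 water and 4 voglibose mice (x axis), with digits for the mouse number and bars for mean ± SD. The groups overlap in all 10 panels, and Slc46a1 has by far the widest spread among these 10, from 5.69 to 10.45.

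At the brush border, the transporter Slc11a2 had 8.18, 9.17, 8.80 and 8.73 in water mice 1 to 4 and 8.85, 9.21, 8.59 and 8.78 in voglibose mice 1 to 4 (log2 signal). Water mouse 1 was lowest, and the other 7 mice ran from 8.59 to 9.21. The group means were 8.72 ± 0.41 and 8.86 ± 0.26 (SD, n = 4), a difference of 0.14 ± 0.22 (SE). The sign rested on water mouse 1, without which the difference was -0.04, and it was 0.02 without voglibose mouse 2. The reductase gene Cybrd1 had 6.63, 6.75, 6.23 and 5.66 with water and 6.22, 6.39, 5.70 and 7.02 with voglibose. Its lowest values were in water mouse 4 and voglibose mouse 3 and its highest in voglibose mouse 4, so each group held high and low mice. The difference was 0.02 ± 0.30 (SE), with a 95% interval of the ratio from 0.644 to 1.59. Without voglibose mouse 4 it was -0.21, and without voglibose mouse 3 it was 0.23.

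Slc46a1 varied more between mice than any other of the 10 members, with 8.22, 5.69, 7.80 and 10.45 with water and 7.78, 9.73, 6.81 and 6.23 with voglibose. Water mouse 4 and voglibose mouse 2 were highest, and water mouse 2 was lowest, a range of 4.76 log2 units or 27.1-fold. Its within-group SD of 1.76 stood at the 99.8th percentile of all probe sets, beside a median of 0.26. The group means were 8.04 ± 1.95 and 7.64 ± 1.53 (SD, n = 4), and the difference of -0.40 had a 95% interval from -2.43 to 1.62, which spans changes of over 2-fold in either direction. Leaving out single mice moved it from -1.19 (without water mouse 2) to 0.40 (without water mouse 4), and it was -1.10 without voglibose mouse 2, the mouse with pancreatic transcripts, and 0.07 without voglibose mouse 4.

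On the basolateral side, ferroportin (Slc40a1) had 6.54, 6.20, 6.64 and 7.15 with water and 6.37, 7.05, 6.21 and 6.08 with voglibose. Again water mouse 4 and voglibose mouse 2 were highest, 1 in each group. The difference was -0.21 ± 0.25 (SE), -0.41 ± 0.22 without voglibose mouse 2 (unadjusted p = 0.0879, adjusted p = 0.827, limma) and -0.03 without water mouse 4. Macrophages of the gut wall also express ferroportin, and their marker list ran from -0.06 to 0.18 with water and from -0.24 to 0.10 with voglibose; its part in these values was not tested. The partner oxidase Heph varied little, with 15.32, 15.14, 15.21 and 15.49 with water and 15.12, 15.02, 15.31 and 15.19 with voglibose. The difference of Heph was -0.13 ± 0.14, with a ratio of 0.914 (95% interval 0.738 to 1.13), and it was -0.06 without water mouse 4. Its within-group SD of 0.14 was at the 8.25th percentile of the array. Heph had the smallest p of the 10 members, at an unadjusted p of 0.374 and an adjusted p of 0.866 (limma).

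The transferrin receptor gene Tfrc had 14.37, 15.25, 14.37 and 15.38 with water and 14.97, 14.47, 15.65 and 14.84 with voglibose. Each group held high and low mice, and the highest was voglibose mouse 3. The difference was 0.14 ± 0.30 (SE), and it was -0.08 without voglibose mouse 3 and -0.02 without water mouse 1 or without water mouse 3, while it was 0.31 without voglibose mouse 2 and 0.32 without water mouse 4. Crypt proliferation markers are given because dividing cells carry Tfrc. Their list mean was also highest in voglibose mouse 3 (0.31), and it ran from -0.33 to 0.31 over voglibose mice and from -0.01 to 0.10 over water mice. The markers were not alike: Mki67, Top2a and Cdk1 were highest in voglibose mouse 3, while Pcna, Mcm5, Birc5 and Lgr5 were not. The part of dividing cells in the Tfrc values was not tested. The metal transporter Slc39a14 had 11.13, 10.73, 11.39 and 11.45 with water and 11.75, 11.78, 11.06 and 10.83 with voglibose. The 2 highest and 2 of the 3 lowest values fell in the voglibose group. Its difference of 0.18 ± 0.25 fell to 0.04 without voglibose mouse 2, 0.05 without voglibose mouse 1 and 0.03 without water mouse 2.

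Both ferritin genes had nearly equal group means. The heavy chain Fth1, which carries the ferroxidase site, had 17.74, 17.47, 17.68 and 18.14 with water and 17.83, 17.99, 17.66 and 17.51 with voglibose, a difference of -0.01 ± 0.18 (SE) with a ratio of 0.993 (95% interval 0.759 to 1.30). Its order of mice was again led by water mouse 4 and voglibose mouse 2. The light chain Ftl1, which aids the mineral core, had 14.91, 14.70, 15.00 and 14.74 with water and 15.00, 14.94, 14.75 and 14.54 with voglibose, a difference of -0.03 ± 0.15 and a ratio of 0.979 (0.777 to 1.23). The range over all 8 mice was 0.67 log2 units in Fth1 and 0.46 in Ftl1. The signs of these differences turned under a further quantile normalization, to 0.02 in Fth1 and 0.01 in Ftl1. Both genes have near-identical processed copies in the mouse genome, and whether the probes also read those was not tested.

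Epas1 had 9.09, 8.84, 9.08 and 8.85 with water and 9.47, 9.32, 8.57 and 8.62 with voglibose. The water mice lay close together between the voglibose mice, of which 2 were higher and 2 lower than all 4 of them. The means were 8.97 ± 0.14 and 8.995 ± 0.47 (SD, n = 4), a difference of 0.03 ± 0.22 (SE). It was -0.13 without voglibose mouse 1 and -0.08 without voglibose mouse 2. The same voglibose mice, 1 and 2, were the highest of their group in Slc11a2, Slc40a1, Slc46a1, Slc39a14, Fth1 and Ftl1. In Heph, Cybrd1 and Tfrc they were not. Epas1 is also abundant in endothelium, whose marker list ran from -0.13 to 0.15 with water and from -0.44 to 0.34 with voglibose. The 2 voglibose mice lowest in Epas1, mice 3 and 4, had the highest and the lowest endothelial mean, and the part of endothelium in the Epas1 values was not tested.

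**Figure D2:**
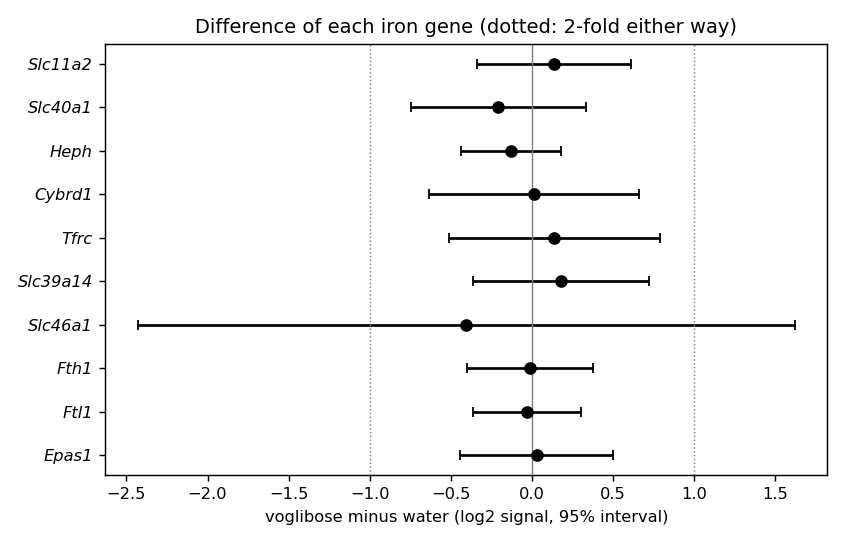
Difference between the groups for each iron gene (voglibose minus water, log2 signal; points) with its 95% interval from limma (bars). All intervals include 0, and only that of Slc46a1, from -2.43 to 1.62, passes the dotted lines at 2-fold.

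While the groups overlapped, some of the iron genes followed markers of the region of the intestine. The relations were chosen after seeing the data, so the p-values below are not those of planned tests. The share of all probe sets that follow these lists was not computed. Whether iron genes follow them more often than other genes was therefore not tested. Over the 8 mice Slc46a1 rose with the mean of the proximal marker list (Pearson r = 0.94, exact permutation p = 0.000397; Spearman rho = 0.90, p = 0.00456). Fth1 followed it as closely (r = 0.92, exact permutation p = 0.00179; rho = 0.98, p = 0.000397). Slc40a1 had r = 0.85 (exact permutation p = 0.00541) and rho = 0.83 (p = 0.0154). Each of the 10 members was set against the proximal and the distal list, 20 relations, and the adjusted p for the proximal list was 0.00794, 0.0161 and 0.0216 for r in Slc46a1, Fth1 and Slc40a1 and 0.0362, 0.00794 and 0.0615 for rho (exact permutation). Slc39a14 passed by rank alone (rho = 0.88, adjusted p = 0.0362; r = 0.77, adjusted p = 0.0724; exact permutation). The distal list ran largely opposite to the proximal one, with means of 2.31 in water mouse 2, -1.61 in water mouse 4 and -1.75 in voglibose mouse 2. Its relations are thus not separate from those above, and opposite signs follow from this. For the distal list r was -0.90 in Slc46a1 and -0.91 in Fth1 (adjusted p = 0.0161 for both, exact permutation). By rank the adjusted p for the distal list was 0.105 in Slc46a1 (rho = -0.76) and 0.0362 in Fth1 (rho = -0.88, exact permutation). Slc40a1 and Slc39a14 did not pass with the distal list by r (r = -0.77 and -0.76, adjusted p = 0.0733 and 0.0745) or by rank (adjusted p = 0.256 and 0.0726, exact permutation). With the pair farthest from the median of the distal list left out (water mouse 2, voglibose mouse 2), r was -0.71 in Slc40a1 and -0.44 in Slc39a14.

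Without water mice 2 and 4, the 2 mice farthest from the median of the proximal list, r with that list was 0.94 in Slc46a1, 0.87 in Fth1, 0.92 in Slc40a1 and 0.78 in Slc39a14. With Adh6a left out of the list, a choice made after seeing the data, r was 0.92, 0.89, 0.80 and 0.75 in the same order. With the group means removed, r was 0.97, 0.92, 0.91 and 0.77 in the same order. Without water mouse 4 and voglibose mouse 2, r of Slc46a1 was 0.86 (n = 6, exact permutation p = 0.0139). Groups of 4 mice are too few for an r of their own. In smooth muscle markers water mouse 4 was lowest (-1.59), voglibose mouse 2 had -0.36 and water mouse 2 was highest (1.66), and the part of the muscle layer in these relations was not tested.

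The other 6 members did not pass with either list. Slc11a2 and Cybrd1, both known from the proximal gut, had r = -0.11 and -0.45 with the proximal list, and Heph and Tfrc 0.26 and -0.26 (exact permutation adjusted p = 0.583 to 0.826 for these 4). Ftl1 and Epas1 had r = 0.35 and 0.39 (adjusted p = 0.624 and 0.594, exact permutation), and the rho of Epas1 was 0.67 (adjusted p = 0.208, exact permutation). All 6 values moved without water mice 2 and 4. The r of Heph turned to -0.78, that of Slc11a2 to 0.58 and that of Cybrd1 to 0.15, while Tfrc had -0.62, Ftl1 0.56 and Epas1 0.75. With the mean of the proximal list as a covariate, a fit chosen after seeing the data, the difference of Slc46a1 between the groups was -0.64 ± 0.27 (SE; unadjusted p = 0.0363, adjusted p = 0.514, limma). In that fit the SE of Slc40a1 fell from 0.25 to 0.16, with a difference of -0.26 (adjusted p = 0.639, limma), and 0 of 10 members passed. At an unadjusted p under 0.05 the same fit had 1 of 10 members, Slc46a1, beside 2110 of all 22206 probe sets.

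**Figure D3:**
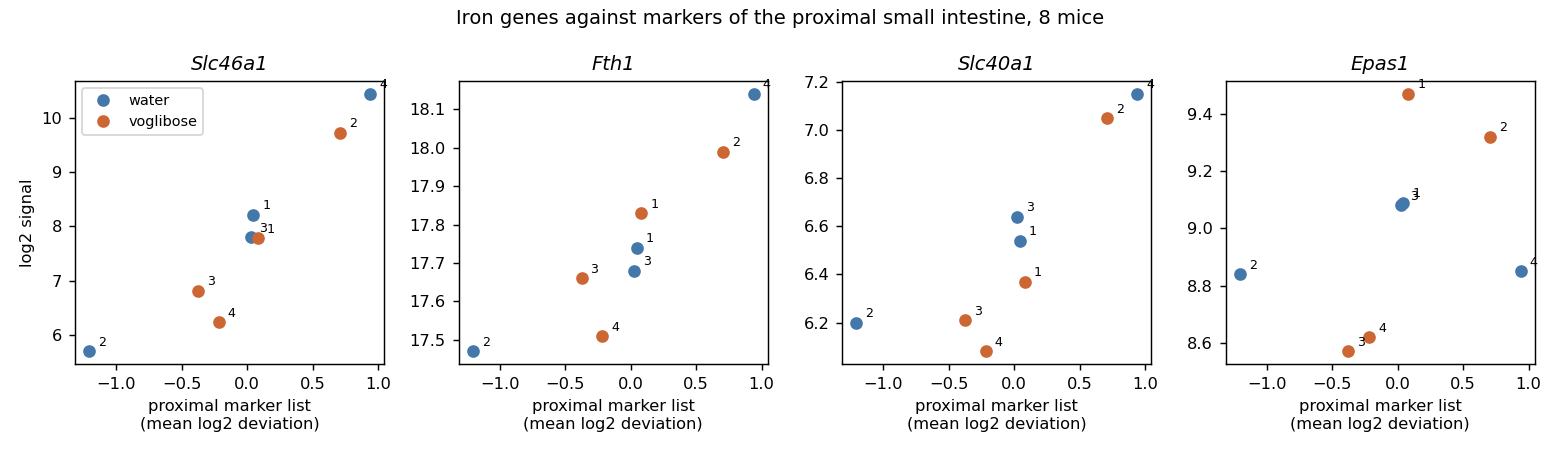
Log2 signal of Slc46a1, Fth1, Slc40a1 and Epas1 (y axes, separate ranges) against the mean log2 deviation of 12 proximal markers (x axis) in 8 mice, with digits for the mouse number. Slc46a1, Fth1 and Slc40a1 are highest in water mouse 4 and voglibose mouse 2, and Epas1 is highest in voglibose mice 1 and 2.

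**Figure D4:**
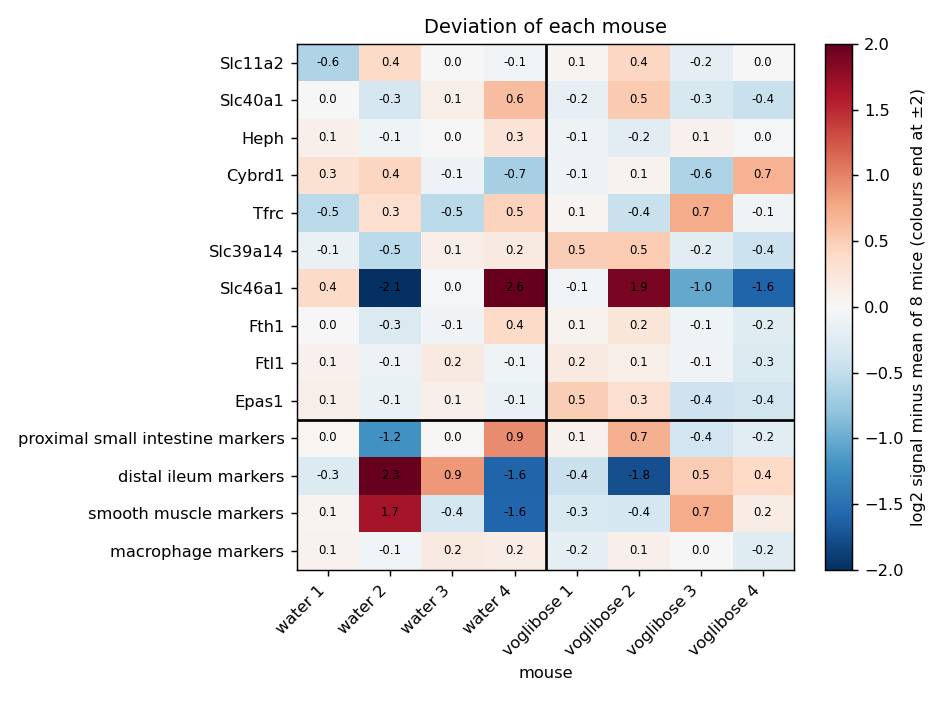
Log2 signal minus the mean of the 8 mice (colour and printed value) for the iron genes and 4 marker lists (rows) in each mouse (columns). Water mouse 4 and voglibose mouse 2 are high in Slc46a1, Slc40a1, Fth1 and proximal markers and low in distal markers, and water mouse 2 is the reverse.

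Around these members, 99 further genes of iron, heme and metal handling were listed, and 94 were measured. They were lower in 50 and higher in 44 (42 and 52 after a further quantile normalization), with a median difference of -0.02 (0.03) and none past the adjusted threshold (adjusted p from 0.652 to 0.997, limma). At an unadjusted p under 0.05 there were 8, or 8.51%, close to the 7.52% of the whole array, and 4 were higher and 4 lower. Steap2, Blvra, Flvcr2 and Vegfa stayed under it whichever single mouse was left out, and the other 4 (Hamp2, Hif3a, Nfs1 and Atp7b) did not. Blvra rose above it without water mouse 4 and voglibose mouse 2 together (unadjusted p = 0.0597, limma). Flvcr2 rose above it in an ordinary linear model (unadjusted p = 0.0643). Groups did not overlap in 4 of 94, beside 4.35% of the array. The share of calls is thus near the background, and the values below are given as measurements.

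Of the transferrin cycle and the ferrireductases, 1 of 13 reached an unadjusted p under 0.05. Steap2, a metalloreductase of endosomes, averaged 7.68 ± 0.22 with water and 7.14 ± 0.27 with voglibose (SD, n = 4), and differed by -0.54 ± 0.18 (SE; limma adjusted p = 0.652). Its groups did not overlap. Hfe, which binds the transferrin receptor and is mutated in human hemochromatosis, differed by -0.27 ± 0.15, and the plasma ferroxidase Cp by -0.29 ± 0.22. Of iron sensing, chaperones and ferritin turnover, 0 of 8 reached it and 7 of 8 were lower (5 of 8 after a further quantile normalization), with a median of -0.15 (-0.14). Above the median signal 57.0% of all probe sets were lower too, and 6 of the 8 genes lie there. Ncoa4, the receptor that sends ferritin to the lysosome, differed by -0.32 ± 0.18, Ireb2, an iron regulatory protein, by -0.34 ± 0.23, and the iron chaperone Pcbp1 by -0.20 ± 0.17.

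Heme genes had 2 of 15 at an unadjusted p under 0.05, both lower. Flvcr2, a choline transporter also described as a heme importer, had 6.68, 8.24, 7.79 and 6.41 with water and 5.73, 6.39, 6.14 and 6.57 with voglibose. Water mice 2 and 3 stood highest and the groups overlapped at their edges, with a difference of -1.07 ± 0.37 (SE; limma adjusted p = 0.652) that became -0.75 without water mouse 2. Blvra, which reduces biliverdin to bilirubin, had 9.07, 8.98, 9.25 and 9.69 with water and 8.42, 8.58, 8.72 and 8.95 with voglibose, so its groups did not overlap. The difference of Blvra was -0.58 ± 0.19 (adjusted p = 0.652, limma). Abcg2, an exporter of porphyrins and drugs, differed by -0.41 ± 0.27.

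In the hepcidin axis, 1 of 12 reached an unadjusted p under 0.05. Hamp2, a mouse relative of the hepcidin gene, had 7.24, 7.35, 7.10 and 7.83 with water and 8.55, 7.76, 7.63 and 7.73 with voglibose. Voglibose mouse 1 stood apart, and the difference of 0.54 ± 0.23 (SE; limma adjusted p = 0.659) was 0.33 without it. Hamp, which encodes hepcidin itself, differed by 0.27 ± 0.24 and Bmp6, the signal that induces it in the liver, by 0.13 ± 0.16. Erfe, the erythroid suppressor of hepcidin, differed by -0.38 ± 0.19 in a range below the median of the array, with groups that did not overlap, and Tmprss6 by 0.20 ± 0.16.

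Among partners, regulators and targets of the hypoxia-inducible factors, 2 of 16 reached an unadjusted p under 0.05, both higher. Vegfa, a growth factor gene and a target of these factors, had 11.16, 11.24, 10.77 and 10.75 with water and 12.14, 11.93, 11.20 and 11.39 with voglibose. Voglibose mouse 3 overlapped the water mice, and the difference was 0.69 ± 0.22 (SE; limma adjusted p = 0.652). Hif3a differed by 0.48 ± 0.19, in a dim range (4.77 and 5.25), and the hydroxylase gene Egln3, another target, by 0.78 ± 0.43. Water mice spread widely in Egln3, from 10.90 to 13.51. Epas1 itself differed by 0.03 ± 0.22, and Ankrd37, a further target, differed by 0.19 ± 0.30. Of the 16 genes measured in this list, 10 were higher and 6 lower, with a median difference of 0.04. After a further quantile normalization these were 11 and 5, with a median of 0.10.

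Of mitochondrial iron import and iron-sulfur assembly, 1 of 15 reached it: the cysteine desulfurase Nfs1 (-0.51 ± 0.21, SE), at -0.33 without voglibose mouse 1. Its partner Lyrm4 differed by -0.52 ± 0.24 and the assembly factor Isca2 by -0.31 ± 0.16. Of other metal transporters and metallothioneins, 1 of 15 did, the copper pump Atp7b (0.65 ± 0.25). It was 0.43 without water mouse 2, and its unadjusted p with the replicate number as a block was 0.0568 (limma). The zinc exporter Slc30a1 differed by -0.38 ± 0.18 with groups that did not overlap, and the zinc importer Slc39a4 by -0.31 ± 0.21. The adjusted p of these 6 genes ran from 0.658 to 0.780 (limma).

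**Figure D5:**
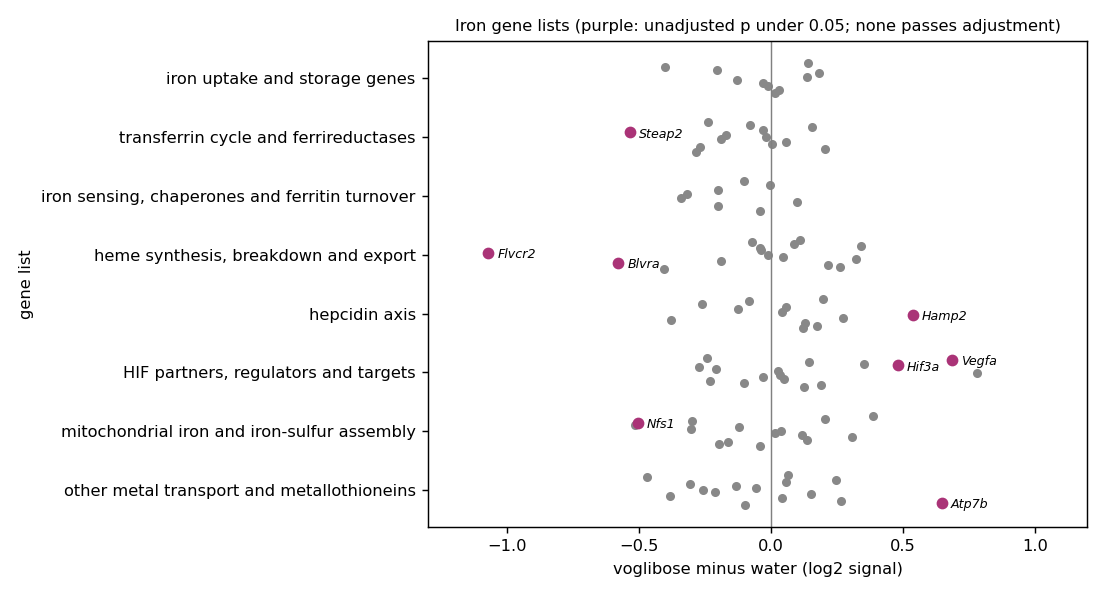
Difference between the groups (voglibose minus water, log2 signal; x axis) for each measured gene of the 10 iron genes and of 7 further lists (y axis). The 10 iron genes lie between -0.40 and 0.18, and 8 genes of the other lists, in purple, have an unadjusted p under 0.05, of which 4 are higher and 4 lower.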

How the data were processed

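The deposited values are log2 signals per probe set to 2 decimals, 1 column per mouse; the scale was read from the values (2.09 to 19.55). Per the submitters' processing notes, the authors used RMA and the Transcriptome Analysis Console, with settings, versions and genome build not given in the sources used here. Because RMA equalizes the distributions of arrays, a shift in total RNA goes unseen. The number of arrays, 4 per group, limits the precision; the median SE of a difference was 0.18. Labels give no litter, batch or scan date.

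All 22206 probe sets were fitted, unfiltered, with limma 3.58.1 in R 4.3.3 (lmFit, eBayes; 2-sided; Benjamini-Hochberg; threshold 0.05). Symbols were updated through a RefSeq table (GRCm38.p6). Named were all 10 members and, in each further list, genes at an unadjusted p under 0.05 and the 3 smallest p, with Hamp, Hamp2 and Bmp6. Ankrd37, named as a target of the hypoxia-inducible factors, was chosen after its values were seen. Members and lists were chosen with earlier results of these data known, and the regional relations after seeing them. Relations used exact permutation over 8 mice (2-sided; scipy 1.17.1). The fit was tested on simulated data with known changes in probe sets above the median signal. At the adjusted threshold it recovered 10.4% of 1.5-fold, 54.8% of 2-fold and 85.4% of 3-fold changes. Most changes of 1.5-fold would thus be missed at that threshold. Same-numbered mice were not paired: correlations of their deviations from group means ran from -0.32 to 0.02. Alternatives were normalization, a filter, the variance model, a block, and left-out mice. Figures used matplotlib 3.10.9.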

Additional observations from a re-analysis of the deposited data

Results flagged for a closer look

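In 3 of the 58 groups of 4 mice examined, 1 mouse lay farther from the rest than the critical value of Dixon's test at 95% (the gap to the nearest mouse over the range of the group); chance flags about 1 group in 20. Voglibose mouse 2 stood apart in the pancreas marker list, with a mean deviation of 4.45 beside -0.74 to -0.40 in the other voglibose mice and -0.84 to -0.53 in water mice. Without this mouse the difference was 0.02 in Slc11a2, -0.0042 in Cybrd1, -1.10 in Slc46a1, -0.41 in Slc40a1, -0.083 in Heph, 0.31 in Tfrc, 0.038 in Slc39a14, -0.091 in Fth1, -0.074 in Ftl1 and -0.078 in Epas1. Voglibose mouse 1 was far from the others in Hamp2, at 8.55. Voglibose mouse 2 was also apart in the erythroid list, at 0.169, but this list held 3 measured markers of 8 and spanned little in that group (0.06 to 0.17).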

How the results depend on the processing

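The count of members past the adjusted threshold was 0 in the fit reported and in all 16 alternatives, and the lowest adjusted p of any member was 0.514. At an unadjusted p under 0.05 there were 0 members except for 1 (Slc46a1) with the proximal list as a covariate. Over the array that count was 1671 of 22206 in the fit reported and 2110 with the proximal list as a covariate. It was 988 among probe sets above the median alone (fewer probe sets tested), and 969 to 1906 when 1 mouse was left out (969 without voglibose mouse 1). Of the 94 further iron genes it was 8, 5 in an ordinary linear model and 4 to 11 without 1 mouse (4 without voglibose mouse 1). The median difference over the members ran from -0.08 to 0.07 without 1 mouse. With the replicate number as a block (replicate block), 0 probe sets passed, 1529 had an unadjusted p under 0.05, and no call on a member changed. Signs turned in 7 of 10 members, Slc46a1 among them. Without 1 mouse, Slc11a2 ran from -0.043 to 0.29, Cybrd1 from -0.21 to 0.23, Tfrc from -0.083 to 0.32, Slc46a1 from -1.19 to 0.40, Fth1 from -0.11 to 0.12, Ftl1 from -0.094 to 0.059 and Epas1 from -0.13 to 0.17, and with the sign kept Heph ran from -0.18 to -0.063, Slc40a1 from -0.41 to -0.033 and Slc39a14 from 0.032 to 0.36. Without water mouse 4 and voglibose mouse 2, Cybrd1 was -0.22, Fth1 0.037 and Epas1 -0.12. A further quantile normalization gave 0.015 in Fth1 and 0.014 in Ftl1. The cause was not tested. Each member had 1 probe set, so no other probe set could be tried. The correlation of Slc46a1 with the proximal list ran from 0.92 to 0.98 without 1 mouse and was 0.92 with Adh6a left out of the list.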
